A study of Mus musculus with 2 samples.

Results

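The 86 genes described here are the nuclear protein-coding genes whose GENCODE M21 symbols name a subunit of the oxidative phosphorylation machinery: Nduf followed by a, b, c, s or v and a number, Sdha to Sdhd, Uqcr, Cox4 to Cox8, Cycs, Cyc1 and Atp5, with the Ndufaf assembly factors left out. They were chosen by symbol, not by level, from 43346 annotated genes of which 21474 are protein coding. By complex they comprise 35 genes of complex I, 4 of complex II, 9 of complex III, 20 of complex IV, 17 of complex V and Cycs. Ndufa4 and Ndufa4l2 were counted with complex IV, of which Ndufa4 is a subunit. Expression was measured by total RNA sequencing of facial prominence tissue from B6NCrl mouse embryos at 11.5 days, in 2 libraries that form 1 group with no treatment or mutation. For library 1 tissue of 109 embryos was pooled and for library 2 that of 88, each pool of both sexes, and 10 ng of RNA longer than 200 nt was used per library. A pooled whole tissue gives the sum over its cell types, and fewer cells of a type cannot be told apart from less RNA per cell. With a single group there is no comparison of conditions and no test; all values are levels and their spread over the 2 libraries (SD, n = 2).

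Oxidative phosphorylation is carried out in the inner mitochondrial membrane. Complexes I and II pass electrons from NADH and succinate to ubiquinone, complex III passes them to cytochrome c, and complex IV passes them to oxygen. Complexes I, III and IV pump protons, and complex V, the ATP synthase, uses the returning protons to make ATP. A small core of complexes I, III, IV and V is encoded by mitochondrial DNA, and all other subunits, including the whole of complex II, are encoded in the nucleus. Several nuclear subunits exist as a broadly expressed form and a form restricted to muscle, testis or other tissues.

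The depth was 30849058 expected counts for library 1 and 31600302 for library 2, and annotated genes took 28627217 and 29281440 of these. Levels are in TPM, a length-scaled share of all transcripts, which divides reads by transcript length, so that genes can be set beside each other. Added spike-in RNA held 15.4% and 15.8% of TPM. All 6 facial mesenchyme markers listed (Msx1, Prrx1, Prrx2, Twist1, Pdgfra, Alx1) stood at 59.8 TPM or more in both libraries. The common spread of genes between the libraries, beyond counting error, was a coefficient of variation of 9.79%.

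Most respiratory genes were transcribed at high levels, and 56 of the 86 lay within 2-fold of the members' median. In both libraries 82 of the 86 (95.3%) reached 1 TPM, against 58.5% of all protein-coding genes. Their median was 258 TPM in library 1 and 247 TPM in library 2, against 3.53 and 3.30 over all protein-coding genes. At a mean of 100 TPM or more stood 74 members, where 6.85% of protein-coding genes stand, and 12 members exceeded 500 TPM. Together the members held 2.60% of all TPM in library 1 and 2.52% in library 2. Most members are short, with a median length of 680 nt against 2084 nt for protein-coding genes, and by expected counts, which are not divided by length, they held 1.38% and 1.34% of the reads on genes. Over the 82 detected members the level fell with gene length (Spearman correlation -0.366). The members lie on 19 chromosomes, and 3 of them (Ndufa1, Ndufb11 and Cox7b) are X-linked. With all members counted, the median was highest in complex V, and complexes I, IV and V had members far below their own medians, as the plot of levels by complex shows.

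**Figure D1:**
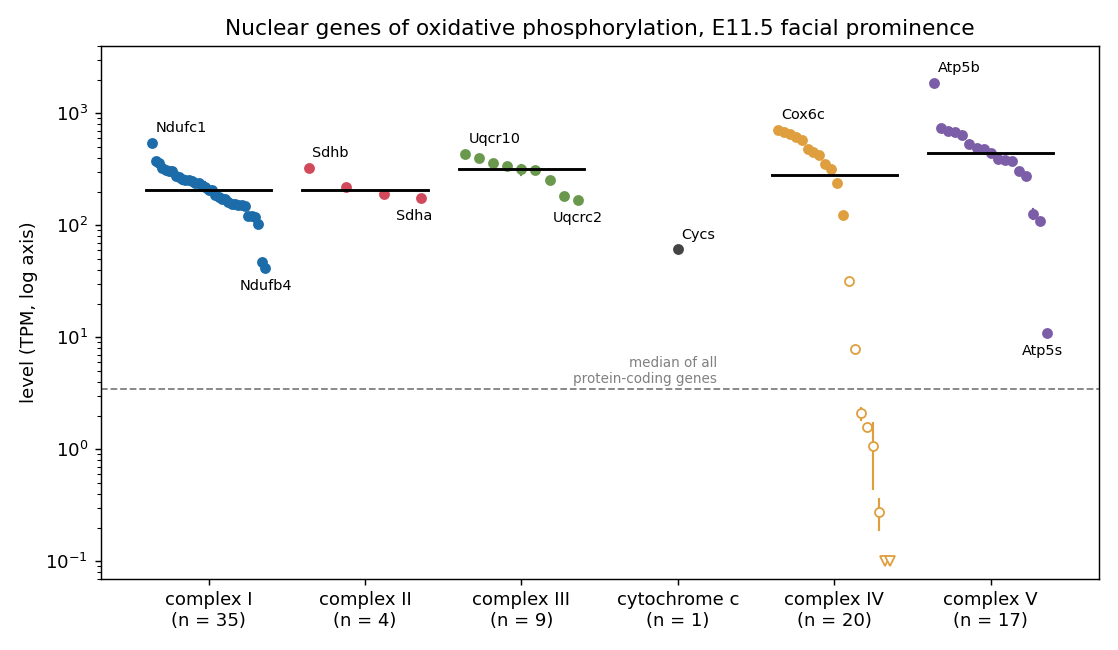
Level of each of the 86 members in TPM on a log axis, grouped by complex and ordered by level; points are means of the 2 libraries, vertical lines join the library values, horizontal bars are medians of the complex, and open symbols are tissue-restricted paralogs. Filled points lie between 10.9 and 1881 TPM, all above the dashed median of protein-coding genes, and the 2 triangles drawn at 0.1 TPM had no count.

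In complex I, the NADH dehydrogenase, all 35 members were detected, with a median of 207 TPM over members, and 31 lay within 2-fold of it. Ndufc1, an accessory subunit of the membrane arm, stood highest at 548 TPM in library 1 and 544 TPM in library 2. It was followed by 3 further accessory subunits, Ndufb8 at 377 ± 21.7 TPM, Ndufa12 at 363 ± 3.50 and Ndufb9 at 328 ± 3.11. This order is that of gene totals. The leading coding transcript of Ndufc1 had 264 TPM in library 1 and 265 TPM in library 2, below those of Ndufb8, Ndufa12 and Ndufb9. Most of the rest of Ndufc1 lay on transcripts not typed as protein coding. The libraries of Ndufc1 and of Ndufb9 differed by less than 2% of their level, and those of Ndufb8 by more. Of the catalytic core, which moves electrons from NADH to ubiquinone, Ndufv2, an iron-sulfur subunit, had 253 ± 3.72 TPM and Ndufs1, the largest subunit, 121 ± 2.25 TPM. The lowest members of the complex were accessory subunits. Ndufs4, whose loss in mice causes a Leigh-like brain disease, was at 103 ± 0.247 TPM, and Ndufa11 at 47.0 ± 1.41 TPM. The TPM of Ndufa11 rests on a single transcript model of 2661 nt, while its exons in GENCODE M21 cover 1092 nt. Its low rank therefore depends on the gene model. Ndufb4 was lowest with 41.1 and 41.9 TPM, a value that depends on how reads are shared with a copy of the gene, described with the near-copies.

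Complex II, succinate dehydrogenase, has 4 subunits, all nuclear. Sdhb, the iron-sulfur subunit, had 324 TPM in each library, and the membrane anchor Sdhd had 220.1 and 223 TPM. The other anchor, Sdhc, had 197 and 185 TPM, and the flavoprotein Sdha, which oxidizes succinate, 174 and 176 TPM. The order Sdhb, Sdhd, Sdhc, Sdha was the same in both libraries. The library values of neighbours in it did not overlap.

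In complex III, the cytochrome c reductase, the 9 members had a median of 316 TPM, and all lay within 2-fold of it. The small subunits led, with Uqcr10 at 446 and 424 TPM, Uqcrq at 414 and 390 TPM, Uqcrb at 361 ± 9.37 TPM and Uqcrh, the hinge protein, at 342 ± 4.99 TPM. The nuclear subunits that carry redox centres were lower than these. Cyc1, cytochrome c1, was at 252 ± 15.8 TPM and Uqcrfs1, the Rieske iron-sulfur protein, at 184 ± 5.26 TPM. Uqcrc2, a core protein that faces the matrix, was lowest at 168 and 170 TPM, while its partner Uqcrc1 was at 315 ± 7.05 TPM.

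Cycs, the soluble carrier cytochrome c between complexes III and IV, was low beside them, at 56.9 TPM in library 1 and 65.0 TPM in library 2. Its germ-line form Cyct, which lies outside the rule, was without counts, and 3 counts would have been 0.263 and 0.259 TPM. Cycs is also a gene whose reads are divided with copies.

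Complex IV, cytochrome c oxidase, ranged from 0 to 711 TPM with a median of 280.4 TPM, and 8 of its 20 members are tissue-restricted paralogs. The 12 others had a median of 468 TPM, above that of complex V. Cox6c was highest with 683 and 738 TPM. Cox6b1, on the side of the membrane where cytochrome c binds, had 732 and 642 TPM, so the libraries gave these 2 genes in opposite order. Cox4i1, the largest nuclear subunit, had 672 and 644 TPM, and Ndufa4 had 638 and 602 TPM. At the lower end of the 12 stood Cox7b at 240 ± 23.7 TPM and Cox7a2l, a factor of supercomplexes of complexes III and IV, at 124 ± 0.544 TPM. Cox5a and Cox5b, which have no restricted form in the list, were at 426 ± 13.1 and 351 ± 9.09 TPM.

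Complex V had a median of 444 TPM over 17 members. Atp5b, the catalytic beta subunit of the F1 part (chr10:128083273-128090391), was the highest of all 86 members at 1917 TPM in library 1 and 1844 TPM in library 2. Its leading coding transcript had 1320 and 1288 TPM of this total, and a processed transcript 510 and 476 TPM. Atp5a1, the alpha subunit, present in the enzyme in the same number of copies as beta, had 731 and 757 TPM. The central stalk genes Atp5c1, Atp5d and Atp5e had 476 ± 7.41, 276 ± 6.29 and 527 ± 14.9 TPM. The 11 genes of the membrane part and the outer stalk had a median of 395 TPM, led by Atp5h at 692 ± 16.9, Atp5g3 at 685 ± 21.6 and Atp5j at 640 ± 17.8 TPM. This order is that of gene totals. Coding transcripts held only 38.3% and 36.3% of the TPM of Atp5j, and its leading coding transcript had 200 and 183 TPM. Atp5s, named for a coupling factor and not a structural subunit of the core enzyme, was lowest at 10.2 and 11.6 TPM, and Atp5l, subunit g, was next lowest at 109 and 112 TPM, a rank that depends on how reads are divided with its copies.

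Subunit c, which forms the rotor ring of the ATP synthase, is encoded by 3 genes whose mature products are identical. Atp5g3 gave 56.5% of their summed TPM in library 1 and 58.4% in library 2, Atp5g1 32.3% and 31.5%, and Atp5g2 11.2% and 10.0%. The order of the 3 genes was the same in both libraries. Atp5g1 and Atp5g2 have near-copies that took reads, and with those reads added Atp5g2 gave 23.5% and 24.3% of the sum and Atp5g3 45.2% and 45.1%.

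In all 7 sets of paralogs, the broadly expressed form exceeded every restricted form in both libraries. The sets were Cox4i, Cox6a, Cox6b, Cox7a, Cox7b, Cox8 and Ndufa4, with 8 restricted forms. Of these, 4 reached 1 TPM in both libraries and 6 had a count. The restricted forms lay between 0 and 31.6 TPM and the broad forms between 240 and 687 TPM, with no overlap of the groups, as the plot of paralogs shows.

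**Figure D2:**
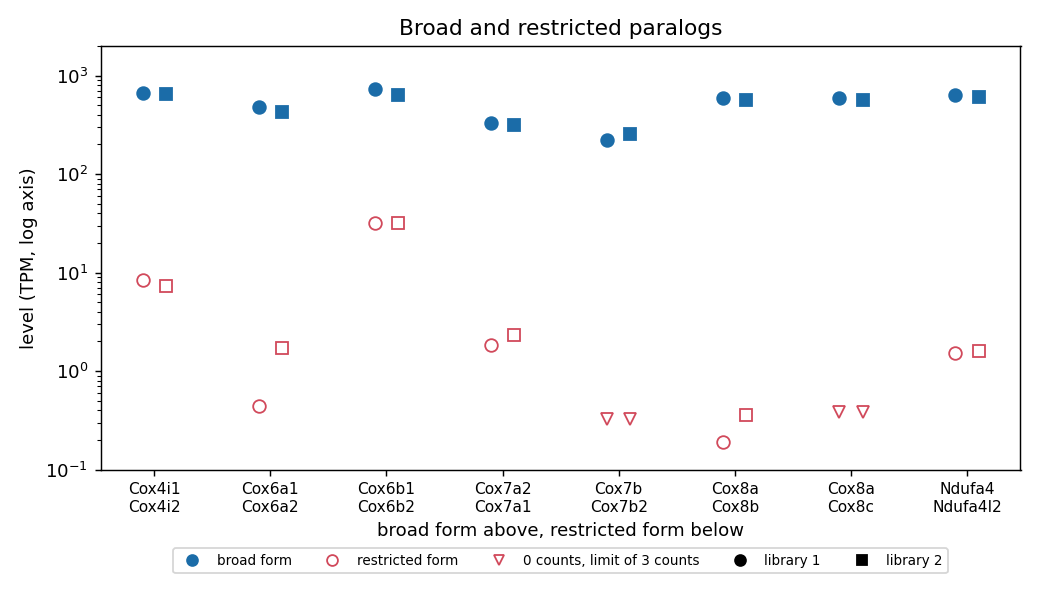
Level in TPM (log axis) of the broad form (filled) and the restricted form (open) of each paralog pair, with circles for library 1 and squares for library 2; triangles mark genes with no count at the level that 3 counts would give. The closest pair is Cox6b1 and Cox6b2, and Cox6a2 is the restricted form whose libraries lie furthest apart.

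The pair with the smallest difference was Cox6b1 and Cox6b2, the latter known as a testis form (chr7:4751792-4753094). Cox6b2 had 31.5 TPM from 266 counts in library 1 and 31.8 TPM from 275 counts in library 2. The broad form was 23.2-fold higher (95% interval 20.5 to 26.4, counting error only) and 20.2-fold higher (17.9 to 22.9). Cox6b2 thus formed 4.13% and 4.72% of the Cox6b transcripts. None of the 5 germ cell markers listed (Dazl, Ddx4, Dppa3, Tex14, Sycp3) reached 1 TPM in either library, with summed levels of 1.63 and 1.57 TPM and Dppa3 at 0 in library 2, and their part in the level of Cox6b2 was not tested. The other testis forms, Cox7b2 and Cox8c, had no count, so Cox7b was at least 675-fold and 790-fold higher than Cox7b2, taking a limit of 3 counts per library. Cox8a was at least 1513-fold and 1476-fold higher than Cox8c.

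Cox4i2, a form found in lung and placed in the response to low oxygen, had 8.39 TPM from 108 counts and 7.39 TPM from 97 counts. Cox4i1 was 80.1-fold (66.3 to 97.8) and 87.2-fold (71.4 to 108) higher. Ndufa4l2, a paralog of Ndufa4 induced by low oxygen, had 1.53 and 1.61 TPM from 27 and 29 counts, 417-fold (286 to 634) and 373-fold (259 to 558) below Ndufa4. For both restricted forms the counting interval of the library ratio included 1, at 0.674 to 1.19 for Cox4i2 and 0.612 to 1.88 for Ndufa4l2. The 6 pericyte markers summed to 51.7 and 47.2 TPM, led by Pdgfrb at 32.0 and 28.9 TPM, and none was at 0; their part in the levels of Cox4i2 and Ndufa4l2 was not tested.

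The muscle forms that had reads were all below 3 TPM. Cox7a1 had 1.84 TPM from 10 counts and 2.35 TPM from 13 counts, and Cox7a2 was 179-fold (97.0 to 373) and 134-fold (78.0 to 251) higher. Cox8b had 1 and 2 counts, and Cox8a was 3166-fold (568 to 125074) and 1545-fold (427 to 12761) higher. Cox6a2, the heart and skeletal muscle form of Cox6a (chr7:128205435-128206387), had 0.44 TPM from 5 counts in library 1 and 1.71 TPM from 20 counts in library 2. It was therefore detected in library 2 only, and the scaled counts differed 3.99-fold (1.45 to 13.6). Cox6a1, its broad partner, had 475 and 428 TPM and was lower in library 2.

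Heart muscle markers moved with Cox6a2. All 6 (Myl2, Myl7, Nppa, Myh6, Tnnt2, Tnni3) were higher in library 2, with summed levels of 23.9 TPM in library 1 and 83.0 TPM in library 2 and none at 0. Of the 6 skeletal muscle markers (Actc1, Myog, Tnnt1, Myl1, Acta1, Ckm), 5 were higher in library 2, while Ckm had 3 counts in each library. The summed levels of the 6 were 101 and 169 TPM, of which Actc1 alone held 43.3 and 87.0 TPM. The part of heart or skeletal muscle tissue in the difference of Cox6a2 was not tested. Cox7a1 and Cox8b had too few counts to show a difference between the libraries, with an interval of 0.525 to 3.30 for the ratio of Cox7a1. None of the 3 brown fat markers reached 1 TPM, with 1 and 2 counts for Ucp1, 17 and 5 for Cidea, and 0 and 3 for Elovl3.

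Between the libraries, most respiratory genes lay close together. Expected counts were scaled by TMM, a trimmed mean over genes, and 83 members had at least 20 counts over both libraries. Of them 67 lay within 1.1-fold, and the median difference was 1.04-fold, beside 1.06-fold for protein-coding genes of at least 50 TPM. The median log2 ratio of library 2 to library 1 was -0.02, beside -0.00333 for all genes with 20 counts and 0.03 for protein-coding genes of at least 50 TPM. The 95% counting interval of the ratio excluded 1 toward library 1 for 20 members (24.1%), against 19.5% of all 16671 genes with 20 counts and 18.8% of the 2980 protein-coding genes of at least 50 TPM. It excluded 1 toward library 2 for 15 members (18.1%), against 20.4% and 38.4%. The members' share was above both backgrounds toward library 1 and below both toward library 2, and the interval holds counting error only. The log2 ratio rose with gene length, over members (Spearman correlation 0.234) and over protein-coding genes of at least 50 TPM (0.239). Neither background was matched to the members for length. At least 1.2-fold apart were 1 of the 83 members toward library 1, against 17.2% of all genes and 1.11% of those of at least 50 TPM, and 2 toward library 2 (2.41%), against 12.2% and 1.41%. The split between the libraries moved with the scaling, for the members as for other genes. With TMM, 20 of the 35 members called were higher in library 1 (57.1%). With scaling to total gene counts these were 35 of 43 (81.4%), where the interval lay toward library 1 for 23.9% of all genes and 26.9% of those of at least 50 TPM, and toward library 2 for 16.1% and 29.1%. With scaling to the spike-ins they were 45 of 50 (90%), where the shares were 28.8% and 36.7% toward library 1 and 12.6% and 20.9% toward library 2.

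**Figure D3:**
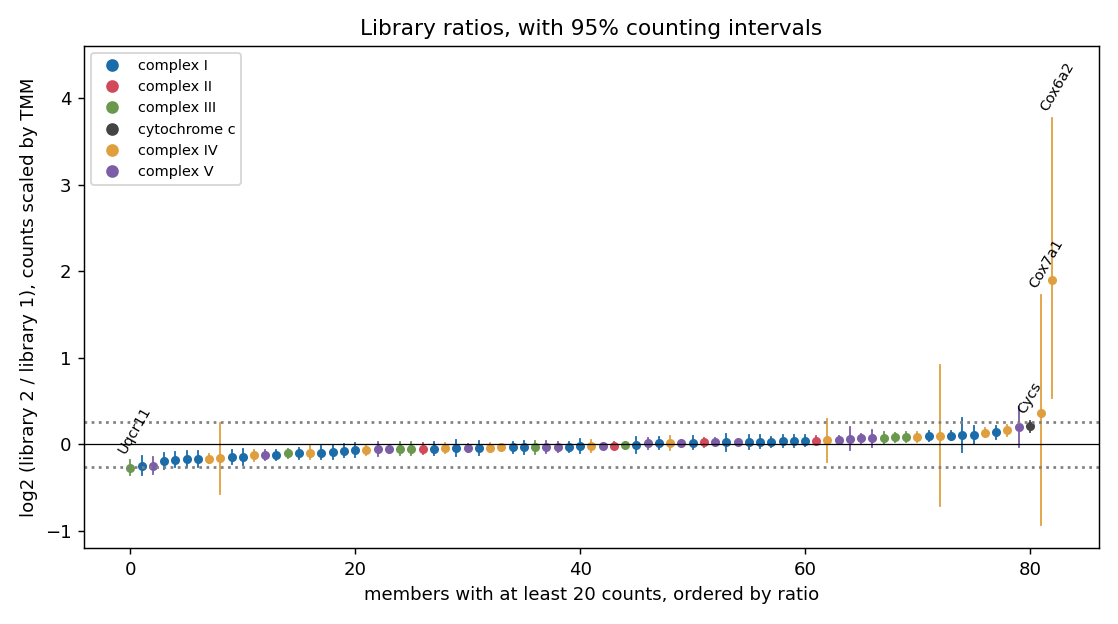
Log2 ratio of library 2 to library 1 from TMM-scaled counts for the 83 members with at least 20 counts, in order of the ratio, with 95% counting intervals and colours by complex; dotted lines mark 1.2-fold. Uqcr11 lies past the lower line, and Cox7a1 and Cox6a2 lie past the upper one.

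The member past 1.2-fold toward library 1 was Uqcr11, a small subunit of complex III, with 348 and 284 TPM and a 1.205-fold difference in counts (1.136 to 1.278). It was followed by Ndufa3 with 285 and 236 TPM, 1.186-fold (1.0999 to 1.279), and Atp5g2 with 139 and 115 TPM, 1.19-fold (1.11 to 1.27). Ndufa1, Ndufs7 and Ndufv3, all of complex I, lay 1.14-, 1.13- and 1.13-fold toward library 1. Toward library 2, the members past 1.2-fold were Cox6a2 and Cox7a1, both muscle forms with few counts. Among members with at least 50 counts, Cycs differed most toward library 2, at 1.153-fold (1.101 to 1.208), then Atp5s at 1.15-fold (0.979 to 1.35) and Cox7c at 1.118-fold (1.072 to 1.167). Ndufc2, Cox6c and Ndufb3 followed at 1.099-, 1.096- and 1.077-fold. Apart from the muscle forms, differences of this size are of the order of the common spread of genes between these libraries given above. By complex, the interval lay toward library 1 for 11 of 35 members of complex I (31.4%) and toward library 2 for 4 (11.4%), against the shares of 19.5% and 20.4% of all genes given above. In complexes III, IV and V the counts in each direction were 2 and 3 of 9, 4 and 4 of 17, and 3 and 3 of 17, and in complex II no member's interval excluded 1. These counts by complex are small and were not tested, and the shares of all genes are not matched to them for length.

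The reads of most members could be assigned with little doubt by the authors' model, as judged by the posterior SD of the count, the deposited measure of how uncertain the division of reads is. Of the 83 members with 20 counts, 0 had a posterior SD over 10% of the count in either library, against 1.95% of protein-coding genes with that count. For 57 members it was under 0.01% in both libraries. It exceeded 1% in both libraries for 5 members, which were Atp5l at 6.82% and 6.30%, Atp5g2 at 4.52% and 4.93%, Ndufb4 at 3.46% and 3.27%, Atp5g1 at 1.95% and 1.95%, and Cycs at 1.18% and 1.16%.

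All 5 of these genes have other annotated genes with nearly the same sequence that were given reads of their own. A search of annotated transcripts, made after values of these genes had been seen, found 65 near-copies of 31 members, of which 62 are annotated as pseudogenes and 3 as protein coding. A near-copy was taken as a gene at least 90% identical over at least 150 nt and over 80% of its own length; these limits were settled on the third attempt, with results seen, and the counts under the others are given with the processing limits. No count fell on 21 of them, and 18 reached a mean of 1 TPM. Together the copies held 3.57% of the reads of members and copies in library 1 and 3.77% in library 2. For 6 members the copies held over 10% in both libraries, as the plot of reads on members and copies shows.

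**Figure D4:**
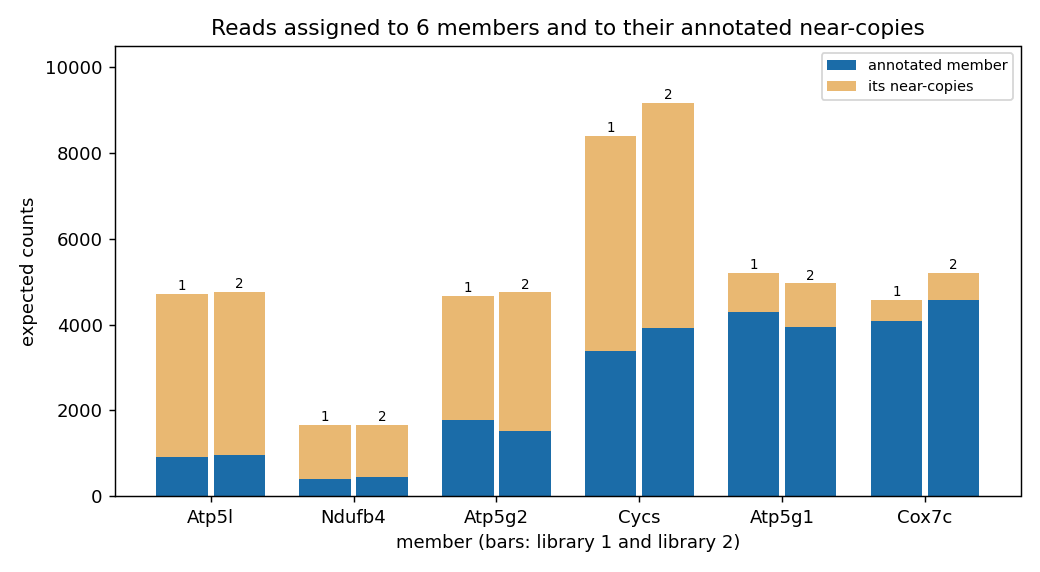
Expected counts assigned to 6 members (blue) and, stacked on them, to their annotated near-copies (tan), with 1 bar per library. For Atp5l, Ndufb4, Atp5g2 and Cycs the copies held more reads than the member, and for Atp5g1 and Cox7c fewer.

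The largest share was that of Atp5l, where copies held 80.5% and 79.8% of the reads. Nearly all lay on Gm10221 (chr5:24581554-24581862), a processed pseudogene identical to Atp5l over 309 nt, with 573 and 563 TPM. Copies of Ndufb4 held 75.2% and 73.2%, all on Ndufb4c (chr15:73809507-73809896), which had 210.4 TPM in library 1 and 200 TPM in library 2. Copies of Atp5g2 held 61.8% and 68.2%, on Gm10175 at 302 ± 20.6 TPM. Copies of Cycs held 59.7% and 57.3%, on Gm10053, annotated as protein coding and 99.9% identical over 946 nt, at 204 ± 2.59 TPM, and on Gm10108 at 343 ± 13.2 TPM. For Atp5g1 the share was 17.5% and 20.5%, and for Cox7c 11.0% and 12.1%, mostly on Gm12338 at 269 ± 34.3 TPM. Where the letters are identical, a read from inside the shared stretch does not show which gene it came from. The part of transcription of the copies themselves in these reads was not tested.

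The shared stretches are shown for 3 of the pairs of member and copy, read from the GENCODE M21 transcripts in the direction of the coding strand. The Cycs pair (chr6:50565315-50565660 and chr5:13121527-13121766, both minus strand, GRCm38, coding bases 1 to 240 from the start codon, with an intron left out in Cycs) differs over all 318 coding bases at 2 positions, G4A and G44A, counted from the A of the start codon and shown in capitals.
Cycs: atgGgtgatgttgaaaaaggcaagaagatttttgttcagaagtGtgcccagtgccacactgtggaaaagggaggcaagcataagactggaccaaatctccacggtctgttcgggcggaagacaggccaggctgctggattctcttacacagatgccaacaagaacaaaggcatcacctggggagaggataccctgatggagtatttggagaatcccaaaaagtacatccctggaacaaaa
Gm10108: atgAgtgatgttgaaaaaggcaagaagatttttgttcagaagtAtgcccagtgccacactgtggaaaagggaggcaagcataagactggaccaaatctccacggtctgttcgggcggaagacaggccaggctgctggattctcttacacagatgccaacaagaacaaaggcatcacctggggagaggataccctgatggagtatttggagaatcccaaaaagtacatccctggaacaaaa
The coding sequence of Ndufb4 is identical to Ndufb4c over all 390 bases, and that of Cox7c to Gm12338 over all 192, so 1 line stands for both genes. The first 120 bases of each are shown in lower case, since nothing differs (Ndufb4 at chr16:37654240-37654359, Ndufb4c at chr15:73809777-73809896, Cox7c at chr13:86045825-86046675 with introns left out, and Gm12338 at chr11:75599835-75599954, all on the minus strand).
Ndufb4 and Ndufb4c: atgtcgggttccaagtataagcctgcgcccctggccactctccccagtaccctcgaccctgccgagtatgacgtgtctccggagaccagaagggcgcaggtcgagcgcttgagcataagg
Cox7c and Gm12338: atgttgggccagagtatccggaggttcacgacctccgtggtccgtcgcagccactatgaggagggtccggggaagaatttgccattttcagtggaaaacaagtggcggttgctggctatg

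Adding the copies' reads to their member moved 4 members by over 2-fold. On the member's own effective length, Atp5l went from a mean of 110.35 TPM to 557 ± 3.36 TPM and from rank 16 to rank 6 of the 17 genes of complex V. Ndufb4 went from 41.5 to 161 ± 6.91 TPM and from rank 35 to rank 25 of 35. Atp5g2 went from 127 to 362 ± 0.895 TPM, so its sum with copies differed less between libraries than the gene alone. Cycs went from 61.0 to 147 ± 7.92 TPM, still below the medians of complexes III and IV. Atp5g1 reached 469 ± 21.2 TPM and Cox7c 547 ± 39.0 TPM. With copies added, the order of the subunit c genes stayed Atp5g3, Atp5g1, Atp5g2. These sums give the members' levels if none of these reads came from a copy. They hold only the copies found by the search and keep the member's effective length, so they are not a strict bound.

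By transcript, 76 of the 82 detected members had a protein-coding transcript as the leading one by share of the gene's TPM, and the leading transcript was the same in both libraries for all 82. For 6 members the annotation types the leading transcript otherwise. For Ndufa5 it was a short processed transcript with 92.2% and 95.1% of the gene's TPM. For Ndufb4 it was a retained-intron transcript with 75.4% and 71.7%, while the coding transcript, whose coding bases are those shared with Ndufb4c, had 10.1 and 11.8 TPM. The leading transcripts of Atp5f1 (typed for nonsense-mediated decay, 71.7% and 71.1%), Atp5j (retained intron, 58.4% and 59.9%) and Cox5b (processed transcript, 60.5% in each) were similar in both libraries. That of Ndufa10 was a retained-intron form with 25.7% and 23.8%. By expected counts, which favour long transcripts, Cox5b and Ndufa10 were led by a coding transcript, giving 78 members. Short models that overlap a coding transcript share most of its reads, so these shares depend on the authors' model. Ndufv3, which has a short and a long coding form, was mostly short, at 82.9% and 82.3%, with the long form at 16.1% and 16.6%.

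Promoter windows from RefSeq (GRCm38.p6, 250 bases before to 50 after the annotated start) were matched for 69 of the 86 members. They were searched on both strands for the core letters bound by factors known to act on respiratory genes: CGCANGCG for NRF1, CCGGAAG for ETS factors such as GABP, AAGATGG for YY1, AAGGTCA for ERR receptors and GGGCGG for Sp1. The NRF1 letters were present in 26 members (37.7%), against 9.22% of all 27025 genes of the table, 12.5% of protein-coding genes and 25.5% of protein-coding genes of at least 50 TPM. The ETS letters were present in 16 (23.2%), against 9.93%, 12.9% and 26.9%, so the share of members lay between that of coding genes and that of highly transcribed ones. The YY1 letters were present in 11 (15.9%, against 7.28%, 7.18% and 10.6%) and the ERR letters in 8 (11.6%, against 5.38%, 4.73% and 3.60%). The Sp1 letters were present in 29 (42.0%, against 38.2%, 49.2% and 72.1%). Either NRF1 or ETS letters were found in 35 members, and both in 7. A few genes have more than 1 window (5 members, 7.25%, against 15.4% of all genes), and a gene was counted if any window held the letters. A match of letters is a description and not a binding site.

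**Figure D5:**
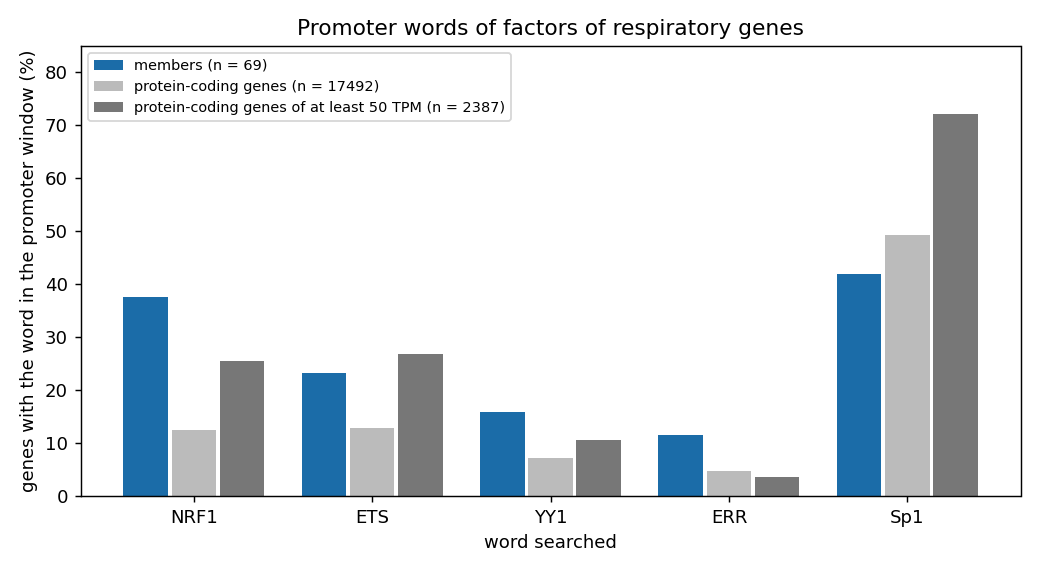
Share of genes in percent whose promoter window holds each searched word, for the 69 members matched, for 17492 protein-coding genes and for 2387 protein-coding genes of at least 50 TPM. The members' bar is the highest for NRF1 (37.7%), YY1 (15.9%) and ERR (11.6%), and the lowest for Sp1 (42.0%).

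By complex, the NRF1 letters occurred in 10 of 31 members of complex I, 2 of 3 of complex II, 3 of 5 of complex III, 1 of 14 of complex IV and 9 of 15 of complex V, a difference that was not tested. The windows of 4 members are printed because they differ in their words and in level, with every searched word in capitals and the start after base 250. Cycs (chr6:50566520-50566819, minus strand) holds an NRF1 word that begins 61 bases before the start and reads the same on both strands, and a Sp1 word after the start. Cox6a1 (chr5:115348909-115349208, minus strand) holds 2 NRF1 words, beginning 161 and 116 bases before the start, 2 Sp1 words, and an ETS word beginning 16 bases before it. Sdhd (chr9:50603800-50604099, minus strand) holds the NRF1, ETS, Sp1 and ERR words. Cox7a1 (chr7:30183921-30184220, plus strand), the muscle form with 2.10 TPM, holds none of the 5 words. In all, 12 members hold none, among them Ndufa4 at a mean of 620 TPM, Atp5g1 at 380 TPM and the muscle form Cox8b at 0.275 TPM. The restricted forms Cox6b2 and Cox7b2 hold a Sp1 word. A lack of these words was therefore not confined to members of low level.
Cycs: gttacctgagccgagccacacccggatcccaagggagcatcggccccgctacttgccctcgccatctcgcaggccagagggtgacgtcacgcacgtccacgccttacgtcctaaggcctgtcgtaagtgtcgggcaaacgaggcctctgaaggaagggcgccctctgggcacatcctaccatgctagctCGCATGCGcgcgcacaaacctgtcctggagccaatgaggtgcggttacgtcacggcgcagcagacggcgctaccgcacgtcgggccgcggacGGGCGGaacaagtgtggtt
Cox6a1: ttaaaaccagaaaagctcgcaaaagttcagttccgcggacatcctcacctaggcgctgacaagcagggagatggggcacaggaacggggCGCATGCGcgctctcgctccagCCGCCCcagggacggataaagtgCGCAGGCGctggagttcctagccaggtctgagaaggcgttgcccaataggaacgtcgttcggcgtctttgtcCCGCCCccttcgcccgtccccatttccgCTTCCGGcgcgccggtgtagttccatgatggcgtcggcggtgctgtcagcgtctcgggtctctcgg
Sdhd: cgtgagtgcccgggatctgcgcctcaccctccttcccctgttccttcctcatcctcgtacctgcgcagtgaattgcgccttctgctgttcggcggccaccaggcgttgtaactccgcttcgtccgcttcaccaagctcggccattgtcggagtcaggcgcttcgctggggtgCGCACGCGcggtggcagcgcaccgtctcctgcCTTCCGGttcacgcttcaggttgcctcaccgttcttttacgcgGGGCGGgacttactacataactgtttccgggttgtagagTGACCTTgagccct
Cox7a1: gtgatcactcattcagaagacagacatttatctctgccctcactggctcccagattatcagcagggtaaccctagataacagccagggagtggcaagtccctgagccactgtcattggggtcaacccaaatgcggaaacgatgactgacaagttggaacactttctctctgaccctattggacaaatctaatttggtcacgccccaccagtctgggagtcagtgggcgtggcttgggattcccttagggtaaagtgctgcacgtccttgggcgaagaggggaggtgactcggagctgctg

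The regulators of respiratory genes ranged widely in level. Of the 12 listed, 11 reached 1 TPM in both libraries, and the median of the list was 25.7 TPM. Tfam, a factor that packages mitochondrial DNA and acts in its transcription, had 87.8 and 92.5 TPM. The GABP subunit gene Gabpb1 had 74.4 and 78.1 TPM, Nrf1 57.1 and 59.5 TPM, and Pprc1, a coactivator of the PGC-1 family, 42.5 and 34.4 TPM. The exception was Ppargc1b, at 2.07 TPM in library 1 and 0.92 TPM in library 2. The other PGC-1 coactivator gene Ppargc1a had 2.21 and 1.88 TPM and its partner receptor Esrra 2.27 and 1.71 TPM, so these 3 genes lay below all other regulators on the list.

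Assembly factors stood well below the subunits. Of 49 genes listed as assembly factors or as an inhibitor, 48 were detected, and the median of the list was 31.7 TPM. The highest was Atpif1, the inhibitor of the ATP synthase, at 842 and 848 TPM, above every nuclear subunit described here except Atp5b. Uqcc2, an assembly factor of complex III, followed at 282 and 255 TPM, then Coa3 and Cox14 of complex IV at 153 ± 10.5 and 103 ± 16.3 TPM. Pet117, a factor of complex IV, was without expected counts, and 3 counts would have been 0.246 and 0.242 TPM. Its posterior mean count was above 0, with a posterior SD of 97.3% and 96.8% of it. The lack of expected counts thus rests on how reads were divided, and 3 counts are no limit on its level. The median log2 ratio between the libraries was 0.00371 over the 48 factors with 20 counts.

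The 13 subunits encoded by mitochondrial DNA had a median of 1044 TPM and together held 2.29% and 2.44% of all TPM, beside 2.60% and 2.52% for the 86 nuclear members. mt-Atp6 and mt-Atp8 of the ATP synthase were highest at 6038 and 7095 TPM and at 5416 and 5980 TPM, and mt-Nd4l was lowest at 22.8 and 136 TPM. For several of them the posterior SD was large, at 62.7% and 71.9% of the count for mt-Co3 and 55.7% and 33.1% for mt-Nd4l. It was 35.4% and 31.6% for mt-Co2, 18.6% and 18.4% for mt-Nd3, and 16.6% and 17.3% for mt-Atp6. The single values of these genes are therefore uncertain, as is the order of mt-Atp6 and mt-Atp8. Ndufab1, the mitochondrial acyl carrier protein that is also a subunit of complex I but falls outside the symbol rule, had 513 and 552 TPM, a level like that of Ndufc1.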

How the data were processed

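Total RNA of 2 facial prominence libraries was quantified by the authors on assembly mm10 with GENCODE M4 gene models, per the labels; column headers match RSEM output, while aligner and read strandedness are not given in the sources used here. The deposited expected counts are reads per gene or transcript, where a model divides reads with several matching places. The deposited TPM are computed over all entries with the spike-ins included. The deposited percent values give each transcript's share of its gene's TPM, and the deposited posterior SD, in reads, was divided by the posterior mean count.

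Symbols and gene types came from GENCODE M21, matched by gene identifier. A gene was called detected at 1 TPM in both libraries. Scale factors by TMM were computed from rounded expected counts (edgeR 4.0.16, R 4.3.3), which here served scaling and the common spread only. Ratios were taken from unrounded counts and their intervals from rounded ones. DESeq2 1.42.0 size factors were an alternative. The library ratio of genes with at least 20 counts has an exact Clopper-Pearson 95% interval of the count split (scipy 1.17.1, Python 3.11.15). With no molecular identifiers, intervals and limits (3 counts) cover counting error only. The ratio script was checked on simulated data. Near-copies were found with blastn 2.17.0.

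The members and lists were chosen with earlier results of these data known. Named were, in each complex, the 4 highest and 3 lowest members, all paralog sets, the 6 largest library ratios each way among members with at least 50 counts, members under 1 TPM, and members whose leading transcript was not coding; others are named for their role or their near-copies. Mature protein sequences were not used here. One result is not reported here.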

Additional observations from a re-analysis of the deposited data

How the results depend on the processing

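In all 7 paralog sets the broad form led under every alternative run. Over all results, 54 alternative values stayed within the spread or limits set and 22 did not, 3 of them the shares of the subunit c genes with near-copy reads added. The limits differed between results, so this tally does not measure robustness. Counts of 43 and 50 members with an interval that excludes 1, beside 35, were taken as within them. A complex I median of 203 TPM beside 207 TPM was not. With TPM rescaled over annotated genes, which removes the spike-ins, the median rose to 299 TPM over all members, and to 245, 244, 374, 332 and 526 TPM for complexes I to V in order. With posterior mean TPM, the medians of complexes I and II were 203 and 201 TPM. Restricting complex IV to its detected members gave 389 TPM, and adding the reads of near-copies, an alternative chosen after seeing the data, gave 476 TPM for complex V. With 1 library left out, the medians ranged from 247 to 258 TPM over all members, 203 to 208 for complex I, 204 to 209 for II, 309.75 to 345 for III, 276 to 285 for IV and 432 to 456 for V. The median log2 library ratio was -0.0504 with scaling to total gene counts and -0.0794 with scaling to spike-ins, and members at least 1.2-fold apart numbered 5 under each, and 1 at a 1.5-fold threshold. At a posterior SD threshold of 5%, 1 member (Atp5l) exceeded it. The near-copy search gave 107 copies, 40 of them microRNA genes, with all gene types and at least 100 nt, and 56 of 28 members with pseudogenes only and at least 200 nt; 6 and 5 members then had over 10% of reads on copies, Cox7c being lost in the latter. The causes were not tested, beyond what each alternative leaves out. No paired analysis was possible because the libraries form a single group. Few counts limit Cox6a2, Cox7a1 and Cox8b.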

Other observations

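For 5 of the 83 members with a ratio, the authors' effective length, which TPM divides by, differed by more than 5% between the libraries, so that TPM and counts moved apart. Cox7b had 222.88 and 256 TPM while its expected counts were 3265 and 3225. Its effective length was 714 nt in library 1 and 603 nt in library 2, a change of -15.6%. The coding transcript of Cox7b held 60.5% and 45.5% of the gene's TPM, and a processed transcript of 180 nt held 0% and 11.7%. For Ndufa10 the effective length was 11.7% longer in library 2, and TPM was 243 and 199.59.

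Exons of 26 members share bases with those of another annotated gene, on the opposite strand for 24 of them, and no member shares most of its exonic bases. The largest shares were those of Ndufb6 with Smim27 (39.0%), Ndufa13 with Tssk6 (30.0%) and Uqcrc2 with Pdzd9 (19.7%). Atp5j, a subunit of the outer stalk, shares 12.7% of its exonic bases with Gabpa, the gene of a regulator of respiratory genes. Without known strandedness, reads in these stretches cannot be told apart.

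The 98 protein-coding genes whose symbols begin with Rpl or Rps and a number had a median of 567 TPM, above the 252 TPM of the respiratory genes. They held 5.66% and 5.52% of all TPM. Most name cytosolic ribosomal proteins, but the symbol rule also takes in some genes of other proteins, so these values are those of a mixed set.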
